A study of Mus musculus with 6 samples.

Results

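The 9 genes described here are known for their roles in type 3 innate lymphoid cells (ILC3) and lymphoid tissue inducer (LTi) cells: Il23r, Ahr, Maf, Lta, Ltb, Tnfsf11, Tnfrsf11a, Nrp1 and Tmem176b. They were chosen by symbol, and all 9 of 9 were present in the deposited table of 16383 genes and passed the filter on low counts. The libraries were made from sorted ILCPs, the marrow precursors of innate lymphoid cells (Lin-, Flt3-, IL7Rα+, α4β7+, CD90+, CD25-), of C57BL/6 mice carrying Rag1-cre and ET-2. There were 3 libraries of GFP+ ILCPs, in which GFP reports ET-2 expression, and 3 of GFP- ILCPs from the same marrow. Both groups share the Rag1-cre;ET-2 genotype and no treatment, and the age of the mice is not given in the sources used here. Each replicate was a pool of 4 to 5 mice, divided by GFP into its GFP+ and GFP- libraries. Cre was driven by Rag1, a gene switched on in lymphoid progenitors, and libraries of mice with Rag1-cre alone were not used here, so any difference in Cre activity between GFP+ and GFP- cells and the effect of ET-2 cannot be told apart. From earlier work, ET-2 is a fusion of E47 activation domains to the part of TAL1 that contacts DNA, made to switch on genes with E boxes. Values given for 3 libraries of a group stand in the order of replicates 1, 2 and 3 throughout.

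As background, ILC3 respond to IL-23 through the receptor subunit encoded by Il23r, and they need the ligand-activated transcription factor AHR to persist in the gut. LTi cells belong to the same branch. They carry lymphotoxin, a membrane complex of the products of Lta and Ltb, which signals through the lymphotoxin beta receptor on stromal cells and starts the formation of lymph nodes. They also carry RANKL, the product of Tnfsf11, whose receptor RANK is the product of Tnfrsf11a. In bone marrow, ILCPs are early cells that have not yet taken the ILC1, ILC2 or ILC3 path.

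The libraries held 10432509 to 15042452 counts in GFP+ ILCPs and 11680724 to 19038706 in GFP- ILCPs, and 11240 to 14758 and 13786 to 15016 genes above 0. GFP+ replicate 3 stood apart, with the fewest genes above 0, 8.01% of counts from ribosomal protein genes and 2.98% from immunoglobulin genes, against at most 3.10% and 0.136% in every other library. The sorting markers were present in all libraries: Itga4 stood at 1795 to 6837 CPM (a gene's counts relative to the library total after TMM scaling) in GFP+ and at 2294 to 6460 CPM in GFP- ILCPs, and Il7r at 1259 to 2471 and at 1357 to 2679 CPM. Il2ra, which encodes CD25, a marker sorted against, was present in all libraries. It reached 2032 CPM in GFP+ replicate 3 and stood at 151 to 396 CPM in the others.

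None of the 9 genes passed the test between GFP+ and GFP- ILCPs. Over all 12199 genes tested, edgeR's quasi-likelihood test called 0% at an adjusted p under 0.05, and each of the 9 genes had an adjusted p of 0.998. At an unadjusted p under 0.05 the count was 0 of 9, where 1.77% of all genes stood higher and 1.46% lower, together 3.23%. DESeq2, which gave no p for Ltb, called 0 of the other 8 and 0.378% of all genes, and the authors' deposited table lists 0 of the 9 at an adjusted p under 0.05 and 0.598% of all genes. Of the 9 genes, 6 had a log2 fold change above 0 and 3 below it, with a median of 0.64, against 49% of all genes above 0 and a median of -0.03. Without GFP+ replicate 3 the count above 0 was 4 and the median -0.26. Per pair of libraries from the same mice, 5, 4 and 4 of the 9 genes were higher in the GFP+ library in replicates 1, 2 and 3. The median log2 ratio of the 9 genes within these pairs was 0.09, -0.67 and -0.02, each below the 0.64 of the fit. Because these are bulk samples, fewer cells of a type and less RNA per cell cannot be told apart.

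**Figure D1:**
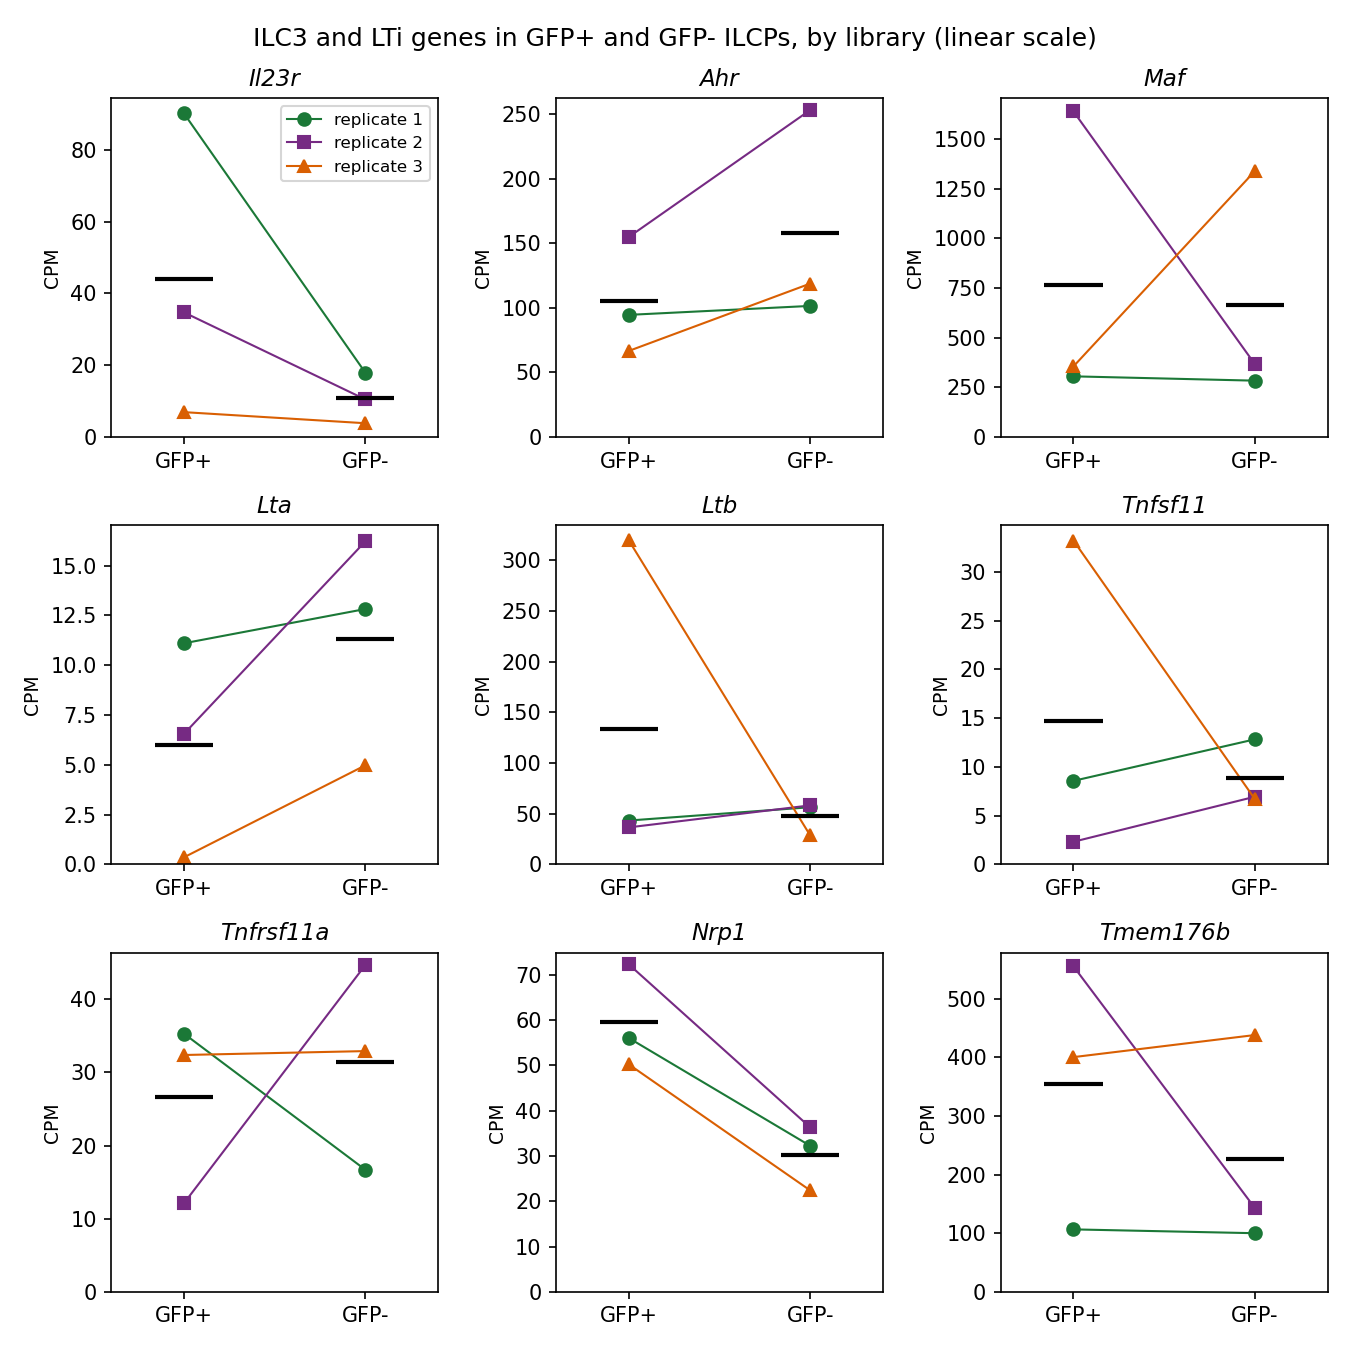
Level of each of the 9 genes (CPM, linear axes that start at 0) in GFP+ ILCPs at the left and GFP- ILCPs at the right of each panel. Symbols and thin lines join libraries of the same replicate and black bars are group means (n = 3). The 3 GFP+ values of Nrp1, 50.2 to 72.3 CPM, lie above its GFP- values of 22.4 to 36.3 CPM, and the groups overlap for the other 8 genes.

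Il23r and Nrp1 were the genes whose GFP+ library stood higher in 3 of 3 pairs, as did 8.51% of all genes tested. Il23r (chromosome 6, 67422932 to 67491855, minus strand, in GRCm38 with GENCODE vM21, as for all positions of genes below) encodes the specific subunit of the IL-23 receptor, which pairs with the product of Il12rb1. It stood at 90.1, 34.7 and 6.90 CPM in the GFP+ libraries, against 17.9, 10.4 and 3.81 CPM in the GFP- libraries. Replicate 1 was the highest and replicate 3 the lowest in both groups, and the lowest GFP+ library lay below the highest GFP- libraries, so the groups overlapped. Il23r averaged 43.9 ± 42.4 CPM in the GFP+ group and 10.7 ± 7.03 CPM in the GFP- group (SD, n = 3 each), and the log2 fold change was 2.04 ± 1.01 (SE; edgeR quasi-likelihood test, unadjusted p = 0.0720, adjusted p = 0.998). Of the Il23r signal summed over libraries, 55.0% came from GFP+ replicate 1, and without it the log2 fold change was 1.00. T lineage markers, whose cells include IL-23 receptor bearers, also had their highest sum in that library, at 675 CPM over 10 genes, with 357 and 140 CPM in GFP+ replicates 2 and 3 and 238 to 380.5 CPM in GFP- ILCPs. Of these 10 markers, 5 had a log2 fold change above 0 and 5 below it, with a median of 0.05. The part of T lineage cells in the Il23r values was not tested. In the authors' deposited table Il23r has a log2 fold change of 2.06, an unadjusted p of 0.0433 and an adjusted p of 0.584.

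Nrp1 (chromosome 8, 128358604 to 128503363, plus strand) encodes neuropilin 1, a co-receptor for semaphorins and vascular endothelial growth factor that is found on LTi cells. It stood at 56.0, 72.3 and 50.2 CPM in the GFP+ libraries, against 32.2, 36.3 and 22.4 CPM in the GFP- libraries. All GFP+ libraries stood above all GFP- libraries, and Nrp1 was the single gene of the 9 whose groups did not overlap, where 3.17% of all genes tested lay apart in this direction. It also had the smallest spread within each group of the 9 genes, 19.2% of the mean in GFP+ and 23.6% in GFP- ILCPs, with means of 59.5 ± 11.4 and 30.3 ± 7.15 CPM (SD, n = 3 each), a ratio of 1.96. The log2 fold change was 0.97 ± 0.60 (SE; edgeR unadjusted p = 0.134, adjusted p = 0.998). It ranged from 0.74, with scaling by totals, to 1.16 over 16 alternatives, the narrowest range of the 9 genes, and no alternative gave an adjusted p under 0.617. Of the other 8 genes, Il23r stayed above 0 and Ahr and Lta stayed below 0 in every alternative, and the other 5 changed sign in at least 1.

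The promoters of the pair that stood higher in every replicate are shown because ET-2 is built to act at E boxes. The sequences are RefSeq's, in GRCm38.p6, cover the 250 bases before an annotated start and run 5′ to 3′ on the gene's strand. Capitals would mark the E box forms CAGCTG and CAGGTG, searched on both strands, and neither form is in these windows. The Il23r window is chr6:67491856-67492105 on the minus strand, and the Nrp1 window is chr8:128358823-128359072 on the plus strand. The Nrp1 window lies within the GENCODE span of the gene, which starts at 128358604. The bases before that GENCODE start were not searched.
Il23r: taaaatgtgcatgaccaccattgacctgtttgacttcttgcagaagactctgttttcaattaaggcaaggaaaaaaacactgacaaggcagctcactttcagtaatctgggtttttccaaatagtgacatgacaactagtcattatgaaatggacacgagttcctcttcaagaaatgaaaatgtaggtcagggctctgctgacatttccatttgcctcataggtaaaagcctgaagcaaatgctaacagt
Nrp1: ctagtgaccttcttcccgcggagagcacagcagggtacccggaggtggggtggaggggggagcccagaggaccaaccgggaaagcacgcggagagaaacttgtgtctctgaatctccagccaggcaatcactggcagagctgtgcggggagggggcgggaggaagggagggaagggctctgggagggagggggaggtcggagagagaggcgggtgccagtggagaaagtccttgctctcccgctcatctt
Of 32851 such windows in the RefSeq table, 27.7% hold one or both E box forms. No match says only that these letters are absent from these windows, and other E box forms were not searched.

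Among the lymphotoxin and RANK genes, the 3 ligand genes parted in GFP+ replicate 3, where Ltb and Tnfsf11 had their highest and Lta its lowest level. Lta encodes lymphotoxin alpha, the soluble partner that joins the membrane anchor lymphotoxin beta, the product of Ltb. The genes are neighbours on chromosome 17 in GRCm38 (GENCODE vM21), with Ltb at 35194439 to 35196320 on the plus strand and Lta at 35203165 to 35205351 on the minus strand. Their nearest ends are 6845 bases apart, and Tnf lies between them. Lta stood at 11.1, 6.56 and 0.36 CPM in the GFP+ libraries, against 12.8, 16.2 and 4.98 CPM in the GFP- libraries. The GFP+ library was the lower of each pair, as for 14.9% of all genes tested, but the groups overlapped. The lowest value rests on 3 counts, and without GFP+ replicate 3 the log2 fold change of -0.91 ± 1.32 (SE; edgeR adjusted p = 0.998) was -0.37.

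Ltb stood at 43.3, 36.5 and 320 CPM in the GFP+ libraries, against 56.4, 58.2 and 28.6 CPM in the GFP- libraries. GFP+ replicate 3 alone was high, and in replicates 1 and 2 the GFP+ library was the lower of the pair. The means, 133 ± 162 CPM for the GFP+ group and 47.8 ± 16.6 CPM for the GFP- group (SD, n = 3 each), differ by less than the spread among GFP+ libraries. The log2 fold change was 1.48 ± 0.85 (SE; edgeR adjusted p = 0.998) with all libraries and -0.26 without GFP+ replicate 3. In that library B lineage markers summed to 102 CPM over 9 genes, most of it from Cd79b at 62.8 and Cd79a at 24.8 CPM, while Pax5 and Blk were at 0. The same sum was 68.3 and 24.2 CPM in GFP+ replicates 1 and 2 and 47.8 to 70.9 CPM in GFP- ILCPs. The part of B lineage cells, ribosomal protein content or other features of that library in the Ltb value was not tested.

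Tnfsf11 (chromosome 14, 78277445 to 78308043, minus strand), which encodes RANKL, stood at 8.57, 2.32 and 33.2 CPM in the GFP+ libraries, against 12.8, 6.94 and 6.69 CPM in the GFP- libraries. As for Ltb, its highest value came from GFP+ replicate 3 and the GFP+ library was the lower in the other pairs. Its log2 fold change was 0.73 ± 1.16 (SE; edgeR adjusted p = 0.998), and -0.70 without that library. With the replicate number as a block it was -0.03. Ltb made up 68.8% to 90.5% of the summed CPM of the 3 ligand genes in GFP+ libraries and 68.7% to 71.5% in GFP- libraries. Apart from GFP+ replicate 3, where Lta gave 0.10% of that sum, its share was 12.4% to 19.9% in every library.

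The promoters of the lymphotoxin genes are shown because both hold an E box form while their levels parted in 1 library. The Lta window is chr17:35205352-35205601 on the minus strand and the Ltb window is chr17:35194257-35194506 on the plus strand, from RefSeq in GRCm38.p6, with the E box in capitals.
Lta: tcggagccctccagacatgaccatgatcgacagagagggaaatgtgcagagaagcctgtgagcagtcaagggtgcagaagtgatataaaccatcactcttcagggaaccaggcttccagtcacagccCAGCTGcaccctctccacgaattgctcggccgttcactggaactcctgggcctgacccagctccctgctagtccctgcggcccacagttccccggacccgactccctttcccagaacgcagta
Ltb: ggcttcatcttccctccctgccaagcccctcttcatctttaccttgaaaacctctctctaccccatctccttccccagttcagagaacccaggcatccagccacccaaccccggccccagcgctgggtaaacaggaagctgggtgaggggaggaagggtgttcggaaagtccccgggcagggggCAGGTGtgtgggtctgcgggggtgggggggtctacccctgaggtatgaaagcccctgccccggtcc
In Lta the form CAGCTG begins 123 bases before the start, and 13.0% of all windows hold it. In Ltb the form CAGGTG begins 66 bases before the RefSeq start at 35194507, and 17.2% of all windows hold it. The GENCODE start of Ltb, 35194439, lies earlier, so by GENCODE this form is within the gene and not before it. Over the 7 genes with a promoter in the table, 6 of 9 windows held either form. The share was 27.7% of all windows and 27.2% of the windows of genes in the deposited table. Several of the 6 belong to Tmem176b. Its windows overlap each other and lie wholly or partly within its GENCODE span, so the 6 are not independent. Besides Lta and Ltb the windows with a form belong to Tnfrsf11a and Tmem176b. The core GCGTG, the letters to which AHR with its partner ARNT is known to bind, was in 2 of the 9 windows, those of Tnfrsf11a and Nrp1, in 28.2% of all windows and in 40.6% of the windows of genes in the deposited table. These matches describe the letters of the windows and are not binding sites.

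Tnfrsf11a (chromosome 1, 105780718 to 105847981, plus strand) encodes RANK, the receptor of RANKL. It stood at 35.3, 12.1 and 32.4 CPM in the GFP+ libraries, against 16.7, 44.7 and 32.9 CPM in the GFP- libraries. The GFP+ library was the higher of the pair in replicate 1, the lower in replicate 2, and lower by 0.02 log2 units in replicate 3. The log2 fold change was -0.24 ± 0.75 (SE; edgeR adjusted p = 0.998), and 0.10 and 0.14 without GFP+ replicate 2 and without GFP- replicate 2. Its highest value was that of GFP- replicate 2, and the highest of its ligand gene Tnfsf11 that of GFP+ replicate 3.

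Of the transcription factors, Ahr (chromosome 12, 35497974 to 35535038, minus strand) encodes the aryl hydrocarbon receptor, which senses dietary and microbial ligands. It stood at 94.6, 155 and 66.6 CPM in the GFP+ libraries, against 102, 253 and 119 CPM in the GFP- libraries. The GFP+ library was the lower of each pair, by 0.10, 0.71 and 0.83 log2 units, as for 14.9% of all genes tested, and the groups overlapped. Ahr averaged 105 ± 45.1 CPM in the GFP+ group and 158 ± 83.1 CPM in the GFP- group (SD, n = 3 each), with a log2 fold change of -0.58 ± 0.57 (SE; edgeR adjusted p = 0.998). Without GFP- replicate 2, its highest library, that value was -0.02.

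Maf (chromosome 8, 115682942 to 115707794, minus strand) encodes c-MAF, a basic leucine zipper factor that restrains and shapes ILC3. It stood at 305, 1638 and 355 CPM in the GFP+ libraries, against 283, 366 and 1338 CPM in the GFP- libraries. One library in each group was high and the others lay close together, so the GFP+ minus GFP- difference was 0.11, 2.16 and -1.91 log2 units in pairs 1, 2 and 3. The log2 fold change over all libraries was 0.21 ± 0.81 (SE; edgeR adjusted p = 0.998). It was -1.01 without GFP+ replicate 2 and 1.24 without GFP- replicate 3. An antisense gene, Gm15655, covers 5.34% of the Maf exons, and the origin of reads lying wholly there is ambiguous without strand.

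Tmem176b encodes a four-span membrane protein that is abundant in ILC3. It stood at 107, 555 and 401 CPM in the GFP+ libraries, against 100.2, 143 and 438 CPM in the GFP- libraries. Like Maf, it was highest in GFP+ replicate 2 and in GFP- replicate 3 within each group, and these profiles were the most alike of any pair among the 9 genes, with a root mean square difference of 0.63 log2 units over 6 libraries after centring. In those libraries the sum of 7 mast cell and basophil markers was 1210 and 946 CPM, led by Cpa3 at 1200 and 498 CPM, and it was 1085 CPM in GFP+ replicate 3 and 204 to 392 CPM in the other libraries. In GFP+ replicate 2 that sum was nearly all Cpa3, with 3 of the 7 markers at 0, and of the 6 markers tested 1, Cpa3, had a log2 fold change above 0 and 5 below it, with a median of -0.85. The part of such cells in the Maf and Tmem176b values was not tested. The log2 fold change of Tmem176b was 0.64 ± 0.73 (SE; edgeR adjusted p = 0.998), 0.15 without GFP+ replicate 2 and 1.54 without GFP- replicate 3. On chromosome 6 its gene, at 48833818 to 48841496 on the minus strand, overlaps its relative Tmem176a on the plus strand. The exons share 81 bases, 3.42% of those of Tmem176b, and the origin of reads lying wholly there is ambiguous without strand. Tmem176a stood at 135, 518 and 559 CPM in the GFP+ libraries and at 231, 152 and 397 CPM in the GFP- libraries.

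**Figure D2:**
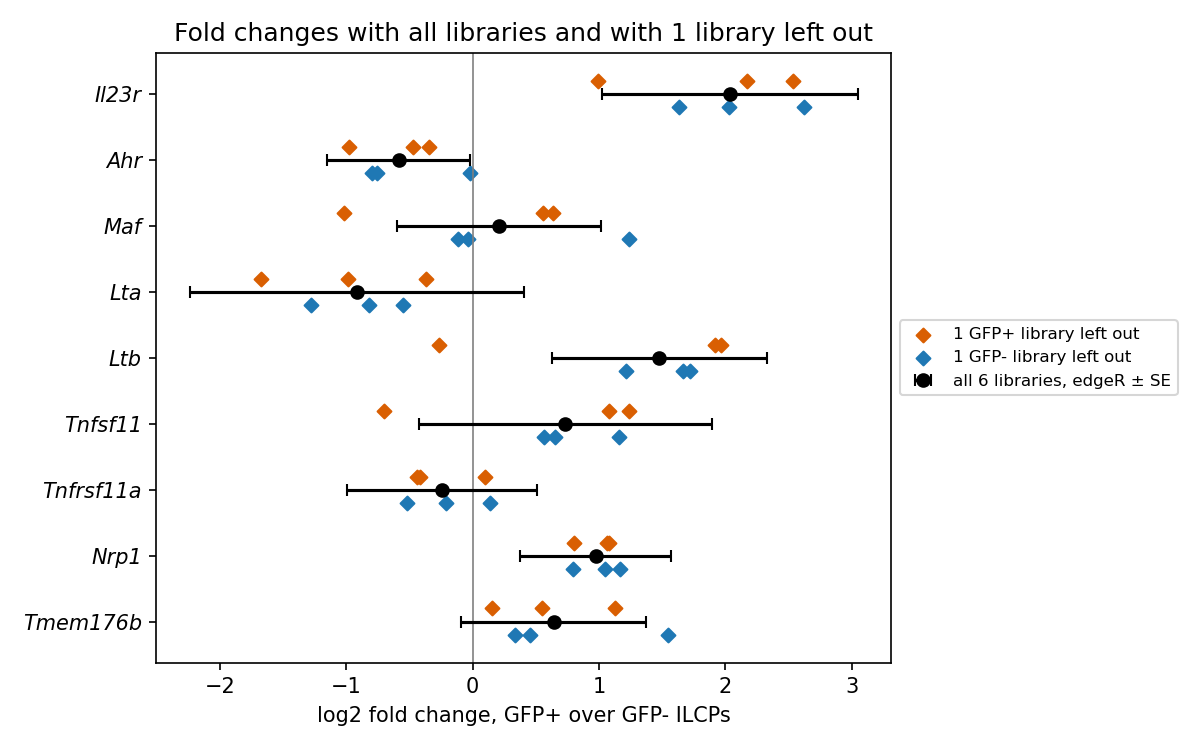
Log2 fold change (GFP+ over GFP- ILCPs) of each of the 9 genes. Black points with bars are edgeR values ± SE from all 6 libraries, and diamonds are the values with 1 GFP+ library (orange, above) or 1 GFP- library (blue, below) left out. All diamonds of Il23r and Nrp1 lie above 0 and all of Ahr and Lta below 0, while Ltb lies at 1.48 with all libraries and at -0.26 without GFP+ replicate 3.

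Levels of different genes can be compared per length of exon, here CPM per kilobase of the GENCODE vM21 exons. In GFP+ ILCPs Tmem176b was highest at 149 ± 96.1 CPM per kilobase, followed by Maf at 93.0 ± 91.7 and Ltb at 87.9 ± 107 (SD, n = 3). In GFP- ILCPs the order began the same way, with Tmem176b at 95.8 ± 77.6, Maf at 80.4 ± 71.2 and Ltb at 31.5 ± 10.9 CPM per kilobase (SD, n = 3). Lowest were Lta in GFP+ ILCPs, at 4.34 ± 3.90, and Nrp1 in GFP- ILCPs, at 3.10 ± 0.73 CPM per kilobase (SD, n = 3). Il23r came next below Ltb in GFP+ ILCPs, at 17.6 ± 17.0, and below Ahr, Lta and Tnfrsf11a in GFP- ILCPs, at 4.30 ± 2.83 CPM per kilobase (SD, n = 3). Every pair of neighbours in the order overlapped in range, except Ahr and Lta in GFP- ILCPs.

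By profile over the 6 libraries (centred log2 CPM, 10681 genes with a mean of at least 20 counts), the gene nearest to Maf was Eapp, at a root mean square difference of 0.04 log2 units, and the nearest to Ahr was Cdca8, at 0.10. Nrp1 was nearest to Ngdn and Nt5c3, at 0.16 and 0.17, and Tnfrsf11a to Ap5m1 and Angpt2, at 0.17 and 0.22. Ltb was nearest to Rpl10-ps3 and Mrpl47, at 0.17 and 0.19, and Tnfsf11 to Tmem71 and Rnaset2a, at 0.14 and 0.17. Lta was nearest to Nhsl1 and Cdk8, both at 0.22, and Tmem176b to Sptlc2 and Eif3j2, at 0.15 and 0.21. Il23r had no profile as near, with Akr1d1 at 0.45 and Rpl15-ps2 at 0.50. The second neighbours of Maf and Ahr were Ginm1 and Snx6, at 0.15 and 0.17. With 6 points per gene, such likeness is a description of these libraries.

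Of 30 other genes of ILC3 and LTi cells, 28 were tested, and Il22 and Il17a were not analysed here. Of the 28, 18 had a log2 fold change above 0 and 10 below it, 0 passed edgeR's test in either direction, and the median was 0.13. The share above 0 was 49% over all genes tested. With scaling by library totals, which moved the median of all genes to -0.19, the count above 0 was 12 of 28. The members of highest level were Rora, Il7r and Tcf7. Rora, which encodes a nuclear receptor needed for ILC2 development, stood at 1737, 2485 and 685 CPM in the GFP+ libraries and at 1893, 2427 and 2726 CPM in the GFP- libraries. Tcf7, which encodes TCF-1, stood at 1114, 3696 and 343 CPM in the GFP+ libraries and at 1433, 2064 and 2176 CPM in the GFP- libraries. The largest differences were those of Csf2 and Ncr1. The cytokine gene Csf2 stood at 2.09, 3.07 and 98.3 CPM in the GFP+ libraries and at 1.33, 0.23 and 4.74 CPM in the GFP- libraries, with a log2 fold change of 4.04 ± 1.69 (SE; edgeR unadjusted p = 0.0374, adjusted p = 0.998). Ncr1, the receptor NKp46 of natural killer cells and some ILC3, stood at 14.7, 3.40 and 0 CPM in the GFP+ libraries and at 36.7, 17.9 and 40.4 CPM in the GFP- libraries. These groups did not overlap, as for 6.01% of all genes in the direction of lower values, and its log2 fold change was -2.38 ± 1.43 (SE; edgeR unadjusted p = 0.126). Both largest differences take their extreme value from GFP+ replicate 3. That library gave 89.5% of the Csf2 signal summed over libraries, and DESeq2 gave no p for Csf2.

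**Figure D3:**
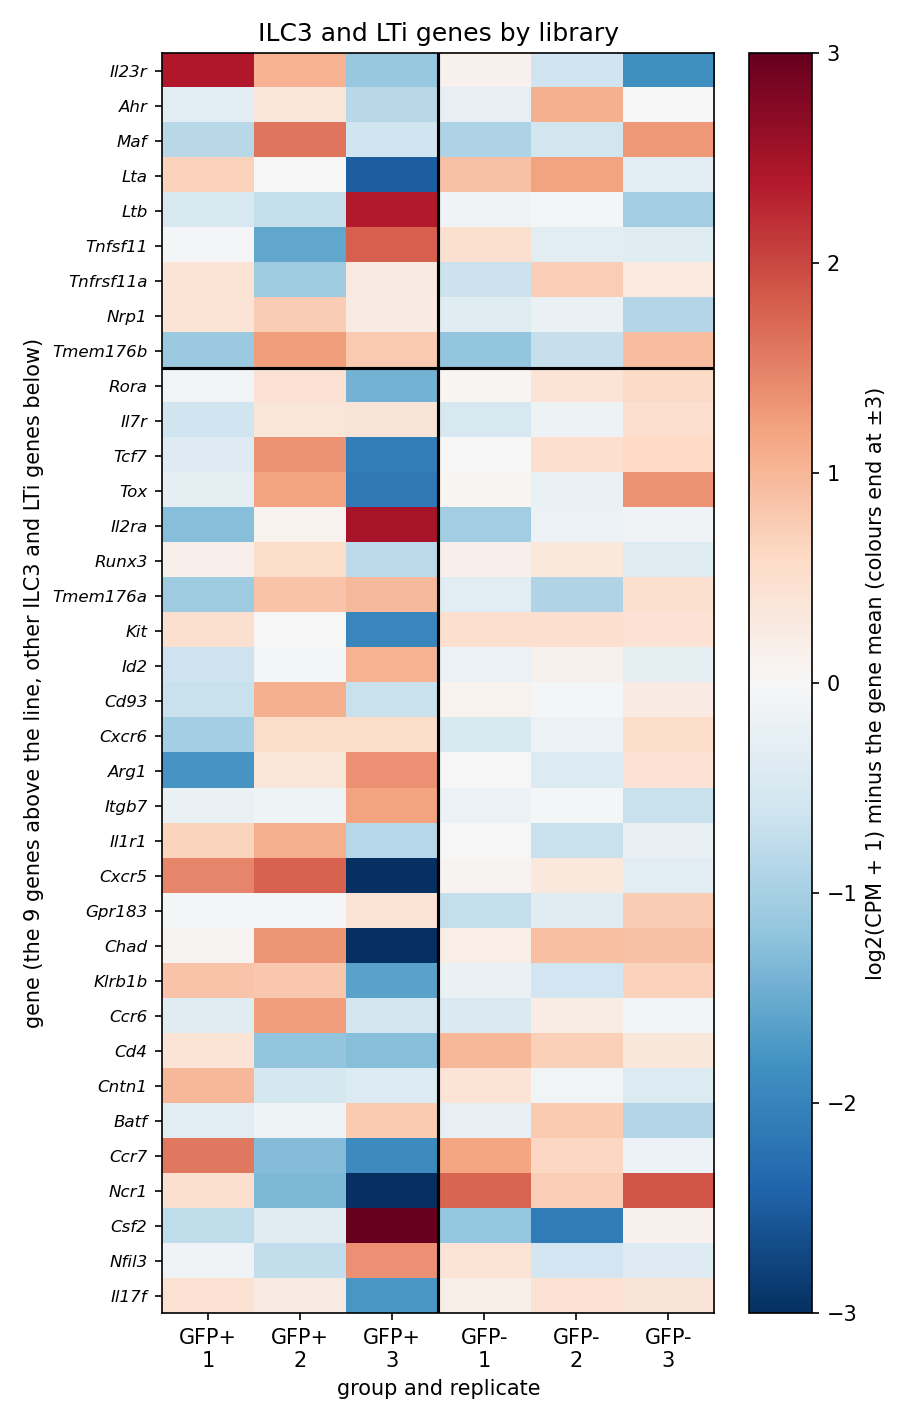
Centred log2(CPM + 1) of the 9 genes above the line and 27 of the other ILC3 and LTi genes, ordered by mean level, below it, in 3 GFP+ libraries at the left and 3 GFP- libraries at the right. Red is above and blue below the gene's own mean, and colours end at ±3. GFP+ replicate 3 holds strong colours of both signs, such as Ltb at 320 CPM and Ncr1 at 0 CPM.

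The signalling chain of the IL-23 receptor had 4 of 10 members above 0 and 6 below, and 0 passed. Il12rb1, the second receptor subunit, was not named by the rule and stood at 60.5, 117 and 9.04 CPM in the GFP+ libraries, against 83.1, 182 and 160 CPM in the GFP- libraries. Each GFP+ value lay below that of its pair, as for 14.9% of all genes tested, whereas Il23r lay above in each. Jak2, the kinase bound to Il23r, stood at 283, 376 and 661 CPM in the GFP+ libraries and at 357, 431 and 891 CPM in the GFP- libraries. The transcription factor genes Stat3 and Stat4 had log2 fold changes of 0.64 ± 0.59 and -0.12 ± 0.69 (SE). The largest differences were those of Socs3, a feedback inhibitor, at 2.49 ± 1.57, and Il12rb2, the IL-12 receptor subunit, at -1.84 ± 1.34 on the log2 scale (SE; edgeR unadjusted p of 0.144 and 0.20).

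Partners and targets of AHR had 4 of 7 tested members above 0 and 3 below, and 0 passed. With scaling by totals 3 were above 0. The chaperone genes Hsp90ab1 and Hsp90aa1, whose products hold AHR in the cytoplasm, had log2 fold changes of 0.08 ± 0.51 and -0.42 ± 0.51 (SE). Arnt, the DNA-binding partner, stood at 101, 339 and 124 CPM in the GFP+ libraries and at 135, 95.9 and 99.7 CPM in the GFP- libraries. Tiparp, a target gene that limits AHR, stood at 19.1, 115 and 25.5 CPM in the GFP+ libraries and at 9.25, 26.4 and 21.5 CPM in the GFP- libraries. It was higher in 3 of 3 pairs, as were 8.51% of all genes tested, and 53.0% of its summed signal came from GFP+ replicate 2. The classical target Cyp1a1 did not exceed 0.49 CPM in any library.

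Partners of lymphotoxin, TNF and RANK had 18 of 24 tested members above 0 and 6 below, with a median of 0.33, and 0 passed. Of all genes tested, 49% stood above 0. The count of these members above 0 was 17 without GFP+ replicate 3, 16 with scaling by totals and 14 by edgeR with the replicate block. The members of highest level were Nfkb1, Ikbkb and Nfatc1, with log2 fold changes of 0.13 ± 0.47, -0.10 ± 0.71 and 0.53 ± 0.50 (SE). Nfatc1, a transcription factor that RANK signalling switches on in osteoclasts, was higher in 3 of 3 pairs, as were 8.51% of all genes tested. Map3k14 encodes NIK, the kinase of the noncanonical NF-κB pathway below the lymphotoxin beta receptor and RANK. It stood at 73.9, 39.3 and 23.9 CPM in the GFP+ libraries, against 62.9, 193 and 142 CPM in the GFP- libraries, with a log2 fold change of -1.54 ± 0.64 (SE; edgeR unadjusted p = 0.0376, adjusted p = 0.998). Traf2 and Birc2, whose products help to degrade NIK, were the 2 members whose GFP+ libraries all stood above the GFP- libraries, as for 3.17% of all genes tested, and were named after their values were seen. Traf2 stood at 29.3, 68.8 and 83.9 CPM in the GFP+ libraries and at 24.5, 28.8 and 22.0 CPM in the GFP- libraries. Birc2 stood at 85.5, 151 and 66.5 CPM in the GFP+ libraries and at 45.7, 57.7 and 35.1 CPM in the GFP- libraries. Their log2 fold changes were 1.27 and 1.13 (edgeR unadjusted p of 0.0792 and 0.0742, adjusted p = 0.998). Ltbr, the lymphotoxin beta receptor of stromal cells, did not exceed 3.24 CPM in GFP+ and 6.94 CPM in GFP- libraries.

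Partners of neuropilin had 5 of 16 tested members above 0 and 11 below, with a median of -0.26, and 0 passed. Without GFP+ replicate 3 the count above 0 was 7. Of all genes tested, 49% stood above 0. The members of highest level were the semaphorin genes Sema4d and Sema4a and the plexin gene Plxnd1, with log2 fold changes of -0.35 ± 0.45, 0.10 ± 0.59 and 0.60 ± 0.50 (SE). Sema4d lay lower in every GFP+ library, at 296 to 400.03 CPM, than in the GFP- libraries, at 411 to 528 CPM. The same held for 6.01% of all genes tested. Sema3a and Sema3b, which encode secreted ligands of neuropilins, had log2 fold changes of -1.91 ± 1.62 and -3.68 ± 2.47 (SE), with their highest values, 14.9 and 16.6 CPM, in GFP- replicate 3. Plxna1, which encodes a plexin that signals together with neuropilin 1, was named after its values were seen. It stood at 26.4, 165 and 46.4 CPM in the GFP+ libraries and at 23.6, 18.3 and 23.0 CPM in the GFP- libraries. Its groups did not overlap, as for 3.17% of all genes tested in this direction. Of its signal summed over libraries, 54.5% came from GFP+ replicate 2. The log2 fold change was 1.87 (edgeR unadjusted p = 0.0348, adjusted p = 0.998).

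The MAF family with its partners and targets had 5 of 10 tested members above 0 and 5 below, and 0 passed. Icos, a costimulatory receptor gene, stood at 333, 714 and 330 CPM in the GFP+ libraries and at 638, 915 and 444 CPM in the GFP- libraries. It was lower in 3 of 3 pairs, as were 14.9% of all genes tested. Nfe2l2 and Bach2 had log2 fold changes of 0.37 ± 0.51 and 0.33 ± 1.12 (SE). The largest differences were those of the cytokine gene Il4, at -1.92 ± 1.39, and of Prdm1, which encodes the repressor BLIMP1, at 1.17 ± 0.82 on the log2 scale (SE; edgeR unadjusted p of 0.197 and 0.181). The Il4 groups did not overlap, with 0.71 to 2.67 CPM in GFP+ and 3.34 to 9.19 CPM in GFP- libraries, all low levels. Of all genes tested, 6.01% lay apart in this direction. Il10, a target of c-MAF in T cells, did not exceed 0.14 CPM in any library.

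**Figure D4:**
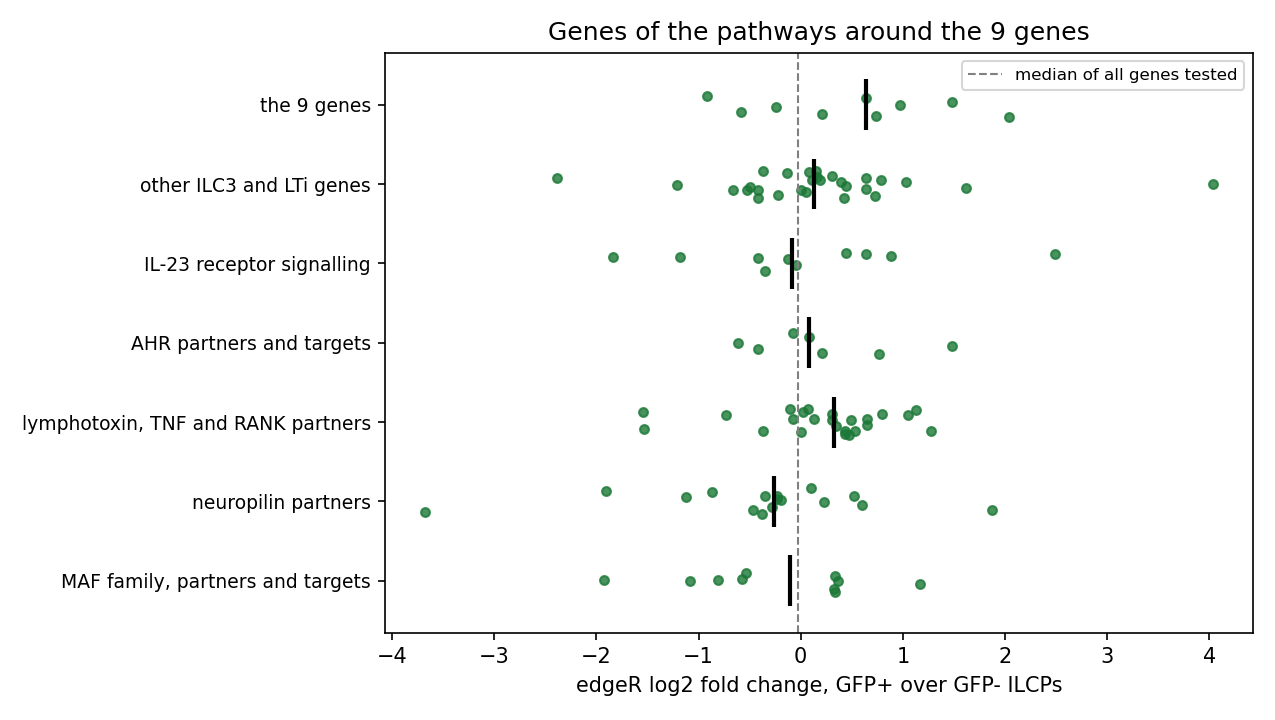
Log2 fold changes (GFP+ over GFP- ILCPs, edgeR) of the 9 genes and of the genes tested in 6 lists of their pathways. Each point is a gene, black bars are list medians and the dashed line is the median of all genes tested, -0.03. List medians lie between -0.26 and 0.64, and no point passed the test.

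Marker lists of other cells were read beside these results, with 0 genes passing edgeR in any of them and the sum of each list given over GFP+ and GFP- libraries. Macrophage, monocyte and granulocyte markers, led by Lyz2 and Mpo, summed to 35.6 to 1638 CPM in GFP+ and 191 to 394 CPM in GFP- ILCPs. Dendritic cell markers, led by Ccr9 and Irf8, summed to 435 to 1522 and 346 to 599 CPM. Natural killer and ILC1 markers, led by Nkg7 and Klrk1, summed to 35.7 to 406 and 313 to 333 CPM, and 8 of their 10 genes were at 0 in GFP+ replicate 3. ILC2 markers, led by Il1rl1 and Il17rb, summed to 1976 to 4513 and 1586 to 2351 CPM. DESeq2 called 1 gene lower in the mast cell list, Fcer1a, and 1 in the natural killer list, Gzma, both at 0 in all GFP+ libraries and named after their values were seen. Erythroid markers, led by Car2 and Car1, summed to 26.5 to 253 and 14.0 to 56.8 CPM. Regulators of ILC precursors, led by Tcf7 and Il18r1, summed to 4100 to 9376 and 5569 to 7238 CPM, with 4 of 9 members above 0. The part of any of these cells in the values of the 9 genes was not tested.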

How the data were processed

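The authors' deposited table gives estimated counts per gene, not whole and not normalized between libraries, and, per the file headers, a mean per gene (score), log2 fold changes with errors, a Wald statistic (score), p-values and adjusted p-values. Tools listed in the submitters' processing notes are kallisto, Bowtie2, Trimmomatic and DESeq2, with GRCm38 as the build. Per the labels, little RNA was amplified isothermally and depleted of ribosomal RNA, which can raise the spread of genes of low level. Whether strand was kept is not stated.

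Counts were rounded and tested with edgeR 4.0.16 (quasi-likelihood, robust, TMM, filterByExpr, Benjamini-Hochberg over all genes at 0.05) in R 4.3.3. The model held the group alone. The common dispersion was that of a coefficient of variation of 0.92 between libraries, so with 3 libraries per group a gene not called may still differ. The test was tried on simulated data as a check of the code, and no power is claimed from it. SE is the log2 fold change over the square root of F. DESeq2 1.42.0 was run beside it with default settings. CPM used the TMM-scaled library sizes. The libraries held 10432509 to 19038706 counts. Alternatives were no filter, a mean of at least 50 counts, other scalings, a replicate block, and each library or replicate left out. Positions came from GENCODE vM21 on GRCm38, and figures from matplotlib 3.10.9. The 9 genes, the lists and the tests were chosen with earlier results of these data known. The naming rule took all 9 genes, in each pathway list the 3 of highest mean CPM, the 2 of largest absolute fold change (mean of at least 20 counts) and any called, and the 2 of highest mean CPM in other lists.

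Each pool of mice gave 1 GFP+ and 1 GFP- library, per the labels, and the replicate number therefore pairs them. Correlations of their deviations from group means were 0.161, -0.121 and -0.131 in replicates 1, 2 and 3. Individual values of some genes in the lists are not reported here.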

Additional observations from a re-analysis of the deposited data

How the results depend on the processing

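In all 16 alternatives 0 of the 9 genes was called. Over all genes edgeR called 0 in every alternative, and DESeq2 called 60, and 153 with the replicate block. The median log2 fold change of the 9 genes was 0.64, and 0.12 by edgeR and 0.17 by DESeq2 with the replicate block, and it ranged from -0.38 to 1.00 when a library or replicate was left out. With that block edgeR gave Tnfsf11 a log2 fold change of -0.033, and it changed no other direction. Leaving out a library or a replicate of both groups turned the direction of 5 genes, with log2 fold changes from -0.53 to 2.09 for Ltb, -0.86 to 1.44 for Tnfsf11, -0.75 to 0.44 for Tnfrsf11a, -1.30 to 1.58 for Maf and -0.092 to 1.54 for Tmem176b. Counts of genes above 0 in the pathway lists without a library or a replicate of both groups were added after seeing the data and ranged from 13 to 18 of the other ILC3 and LTi genes, 3 to 7 for IL-23 signalling, 16 to 20 for lymphotoxin partners, 4 to 8 for neuropilin partners, and 3 to 4 and 3 to 5 for AHR and MAF partners. Scaling by totals moved the median of all genes to -0.19 and gave 12 of the other ILC3 and LTi genes above 0. Lta at 3 counts in GFP+ replicate 3 is limited by depth, and counting error was not separated from the spread between libraries.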
